A study of Mus musculus with 6 samples.

Results

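The miRNA genes Mir296, Mir298, Mir675, Mir483 and Mir335, which lie in imprinted domains of the mouse genome, were followed in small RNA libraries of mouse embryonic fibroblasts. They were chosen by name and locus, not by a rule on their values, though earlier results of these data were known. They are Mir296 and Mir298 of the Gnas domain, Mir675 within H19, Mir483 within Igf2 and Mir335 within Mest. These are 5 of the 1155 miRNA rows of the count table. The cells were wild-type (WT, 3 libraries) or carried a knockout of Fbxw7 (Fbxw7 KO, 3 libraries). Fbxw7 encodes the substrate receptor of a ubiquitin ligase. Both genotypes were grown in the same serum-containing medium. The labels give neither the knockout allele and how it was made, nor the age of the embryos or the passage of the cells, nor if replicates are separate embryos, separate cultures or repeats of 1 culture. P-values therefore reflect the spread of these libraries alone, part or all of which may be technical.

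At an imprinted gene, the copy inherited from 1 parent is expressed and the other is silent, under the control of DNA methylation marks laid down in the germ line. H19 is expressed from the maternal chromosome, and Igf2 and Mest from the paternal one. Mir296 and Mir298 are reported to come from the paternal chromosome, from the long antisense RNA Nespas of the Gnas domain. Each hairpin is cut into a 5p and a 3p arm of which 1 usually guides repression, through pairing of the seed (bases 2 to 8 of the mature miRNA) with target messages. Reads of both arms fall into 1 value here, and no allele-specific reads were measured.

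The 10 mature arms from RefSeq (GRCm38.p6) are shown to compare their seeds, which are in capitals, 5′ to 3′.
miR-296-5p: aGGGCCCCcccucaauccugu
miR-296-3p: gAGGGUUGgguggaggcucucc
miR-298-5p: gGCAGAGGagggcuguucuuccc
miR-298-3p: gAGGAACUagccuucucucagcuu
miR-335-5p: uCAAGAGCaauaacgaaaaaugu
miR-335-3p: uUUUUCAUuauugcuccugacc
miR-675-5p: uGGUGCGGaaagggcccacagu
miR-675-3p: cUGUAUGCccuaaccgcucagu
miR-483-5p: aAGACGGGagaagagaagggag
miR-483-3p: uCACUCCUccccucccgucuu

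The 10 seeds all differ, and 0 other genes among the 926 table rows with a RefSeq hairpin carry any of them. The 2 arms of Mir296 are rich in G and C (66.7% and 68.2%), and miR-296-5p holds a run of 7 C. The arms of Mir335 are the opposite, at 30.4% and 36.4%.

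The hairpins of the 3 measurable members are printed with their mature arms in capitals, since each count is the sum over this whole stretch.
Mir296: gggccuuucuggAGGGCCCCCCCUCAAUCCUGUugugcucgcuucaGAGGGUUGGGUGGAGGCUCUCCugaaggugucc
Mir298: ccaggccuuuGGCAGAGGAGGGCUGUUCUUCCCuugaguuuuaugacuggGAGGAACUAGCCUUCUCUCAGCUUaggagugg
Mir335: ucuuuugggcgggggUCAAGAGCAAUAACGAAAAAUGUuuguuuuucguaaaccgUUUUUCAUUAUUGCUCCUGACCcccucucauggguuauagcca

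The 5 hairpins have the same coordinates in the count table (mm10) and in RefSeq. Mir296 (chr2:174267047-174267125) and Mir298 (chr2:174267504-174267585) lie 378 bases apart on the minus strand. No GENCODE M21 transcript spans either of them, and the annotated end of Nespas, on the same strand, stops 13651 bases upstream of Mir298. Mir335 (chr6:30741299-30741396, plus strand) lies in an intron of all 7 Mest transcripts that span it. Mir675 (chr7:142577064-142577147, minus strand) lies in an exon of 3 spanning H19 transcripts and in an intron of 1. Mir483 (chr7:142654924-142654996, minus strand) lies in an intron of all 7 Igf2 transcripts that span it, and is 77776 bases from Mir675. None of the 5 overlaps another row of the table or shares 20 bases with another of the 926 RefSeq hairpins; copies elsewhere in the genome were not searched. Counting ignored strand and did not set a host RNA fragment apart from a miRNA within the hairpin, so counts in Mir335, Mir675 and Mir483 could include both. The same would hold for Mir296 and Mir298 if the Nespas RNA they are reported to come from extends over them.

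Library totals ran from 2932439 to 5019700 counts, and 283 rows passed the filter on low counts, Mir296, Mir298 and Mir335 among them. Of these 283 rows 25.4% differed between genotypes at an adjusted p under 0.05 by edgeR's quasi-likelihood test, with 15.2% higher and 10.2% lower without Fbxw7 (Benjamini-Hochberg over the 283 rows), and the median log2 fold change was 0.05. Fbxw7 KO replicate 3 stood apart from the other KO libraries on the second principal component (score −6.45 against 2.90 and 3.55). Of 9 listed fibroblast and mesenchymal miRNAs, 1 was at 0, and together they held 51.7% to 52.7% of counts in WT and 52.3% to 55.7% in Fbxw7 KO. Muscle markers held at most 0.0405%, epithelial markers at most 0.00618% and liver, neuronal, blood and pluripotent cell markers at most 0.00232% in any library, and the endothelial marker was listed at 0. Their part in the results below was not tested.

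The 5 members lie at very different levels in these cells. Per hairpin length, in the authors' deposited FPKM (fragments scaled by length and library), Mir296 had 7235 ± 567 for WT against 9864 ± 914 for Fbxw7 KO (SD, n = 3). Mir298 had 7611 ± 895 and 8603 ± 1361 FPKM. The ranges of mean ± SD of these 2 neighbours in the order overlapped in either genotype. This comparison ignores that both were measured in the same libraries, and the ratio within each library is given below. Mir335 followed at 465 ± 238 and 632 ± 146 FPKM, below every library of the Gnas pair. By mean FPKM over the 6 libraries, Mir296 ranked 66, Mir298 68 and Mir335 171 among 671 rows above 0. Mir483 and Mir675, at ranks 454 and 569, were at the edge of detection. The highest FPKM of Mir483 in a library was 13.8 and that of Mir675 6.20, and both were listed at 0 in other libraries.

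**Figure D1:**
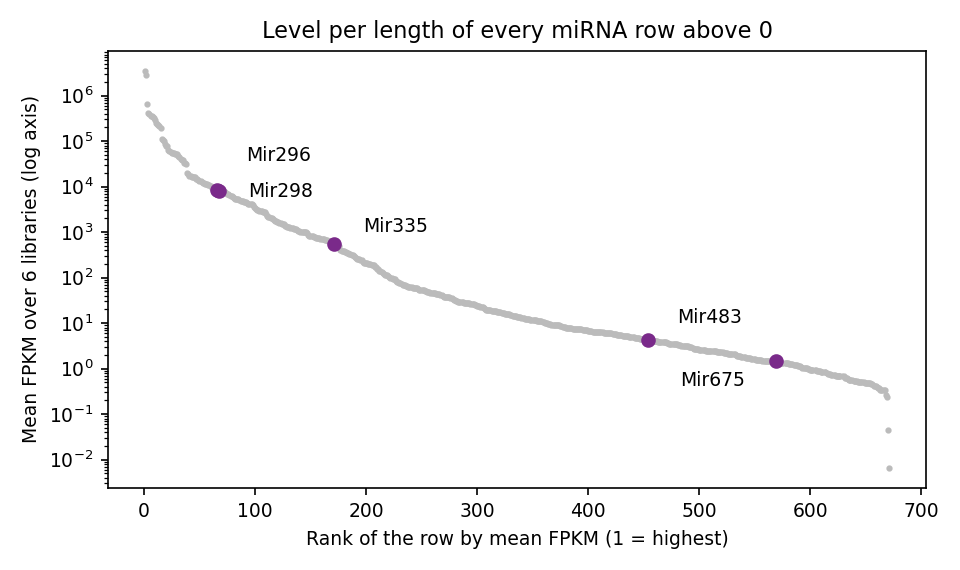
Mean FPKM over the 6 libraries (log axis) against rank for the 671 miRNA rows above 0, with the 5 members as purple points. Mir296 and Mir298 sit together at ranks 66 and 68, Mir335 at 171, and Mir483 and Mir675 far down the tail at 454 and 569.

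Mir296, best known from endothelial cells and embryonic stem cells, was higher in Fbxw7 KO. Its levels in WT replicates 1 to 3 were 544, 560.3 and 624 CPM (counts per 1000000, on TMM-scaled library totals). Fbxw7 KO replicates 1 to 3 had 759.6, 717 and 840.4 CPM. All 3 KO libraries thus lay above all 3 WT libraries, as the KO libraries did in 23.7% of the 283 tested rows. The mean of the WT libraries was 576 ± 42.4 CPM and that of the KO libraries 772 ± 62.7 CPM (SD, n = 3). Mir296 rose by 0.42 on the log2 scale (SE 0.123, 95% interval 0.14 to 0.70, edgeR adjusted p = 0.0365), the 58th lowest p of the 283.

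This call was close to the threshold. The direction held in all 12 alternatives, with log2 fold changes of 0.29 to 0.47, but the call ended in 7 of them (adjusted p over the 12: 0.0265 to 0.129). It ended when any of WT replicates 1 and 2 (adjusted p = 0.0963 and 0.129) or KO replicates 1 and 2 (0.104 and 0.0891) was left out, with scaling on rows outside the Dlk1-Dio3 region (0.108), with no filter on low counts (0.0927) and with DESeq2's Wald test (0.0517). In a bulk sample, more cells that make a miRNA and more of it per cell cannot be told apart.

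Mir298, known chiefly from work on the amyloid-processing enzyme BACE1, did not pass the test, although it lies 378 bases from Mir296 on the same strand. WT replicates 1 to 3 had 583, 594 and 709.7 CPM, and Fbxw7 KO replicates 1 to 3 had 635, 642 and 821 CPM. WT replicate 3 lay above 2 of the 3 KO libraries, so the genotypes overlapped, and replicate 3 was the highest library of each. The log2 fold change was 0.15 (SE 0.148, 95% interval −0.18 to 0.49, edgeR adjusted p = 0.488), and it fell to 0.03 when the library that stood apart, Fbxw7 KO replicate 3, was left out. The interval of Mir298 includes the 0.42 found for Mir296, but it does not compare the 2 rows, which share their libraries. The ratio within each library, given below, does so.

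**Figure D2:**
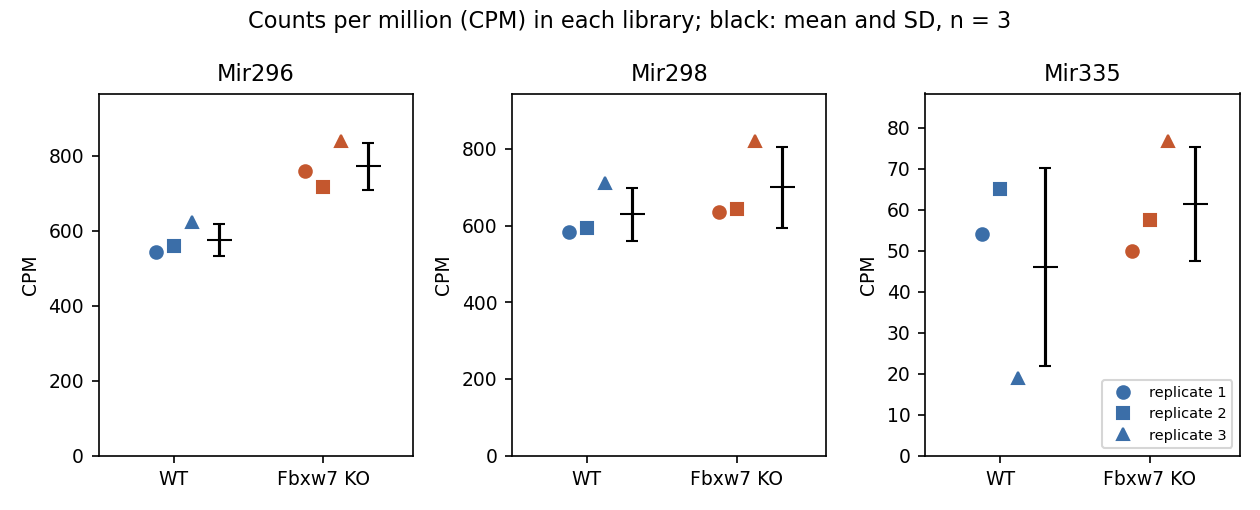
CPM of Mir296, Mir298 and Mir335 in each library, by genotype, with 1 marker shape per replicate number and the mean and SD (n = 3) in black. The KO libraries of Mir296 (717 to 840.4 CPM) lie above its WT libraries (544 to 624 CPM), those of Mir298 overlap WT, and WT replicate 3 of Mir335 is far below the rest at 18.98 CPM.

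The balance within the Gnas pair can be read inside each library, free of library scaling. The ratio of Mir298 to Mir296 counts in WT replicates 1 to 3 was 1.07, 1.06 and 1.14, from 2907, 2498 and 2730 counts of Mir298 and 2711, 2357 and 2401 of Mir296. In Fbxw7 KO replicates 1 to 3 it was 0.836, 0.895 and 0.977, from 2012, 1890 and 3205 counts against 2408, 2111 and 3281. Mir298 was thus the more counted hairpin in every WT library and the less counted in every KO library. In Fbxw7 KO replicate 3 the exact 95% interval of the ratio, which covers counting error only, ran from 0.930 to 1.03 and so included equal counts. The mean log2 ratio (0.5 added to each count) was 0.12 ± 0.0543 for WT against −0.15 ± 0.113 for Fbxw7 KO (SD, n = 3). The difference was −0.27, with all 3 KO libraries below all 3 WT libraries (exact 2-sided permutation p = 0.1, which is as low as 3 against 3 can go).

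Shifts of this size or larger were found in many neighbouring pairs of these libraries, though the pairs are a mixed background. Of 45 pairs of adjacent tested rows on 1 strand within 1000 bases, a background chosen after the ratio had been seen, the ratios of the genotypes did not overlap in 42.2%. The 45 include the Gnas pair itself. Many lie in the Dlk1-Dio3 region on chromosome 12, where 16 of 41 tested rows fell (10.2% of all 283). Some hold a row of few counts, such as Mir201 at 1.04 to 4.42 CPM. The share without such pairs was not computed. Over all 45 pairs the median size of the difference was 0.31, and 24 pairs had a larger one than the Gnas pair. The 2 hairpins were measured at nearly equal depth (15269 counts of Mir296 and 15242 of Mir298 in all), so counting error limits both alike.

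**Figure D3:**
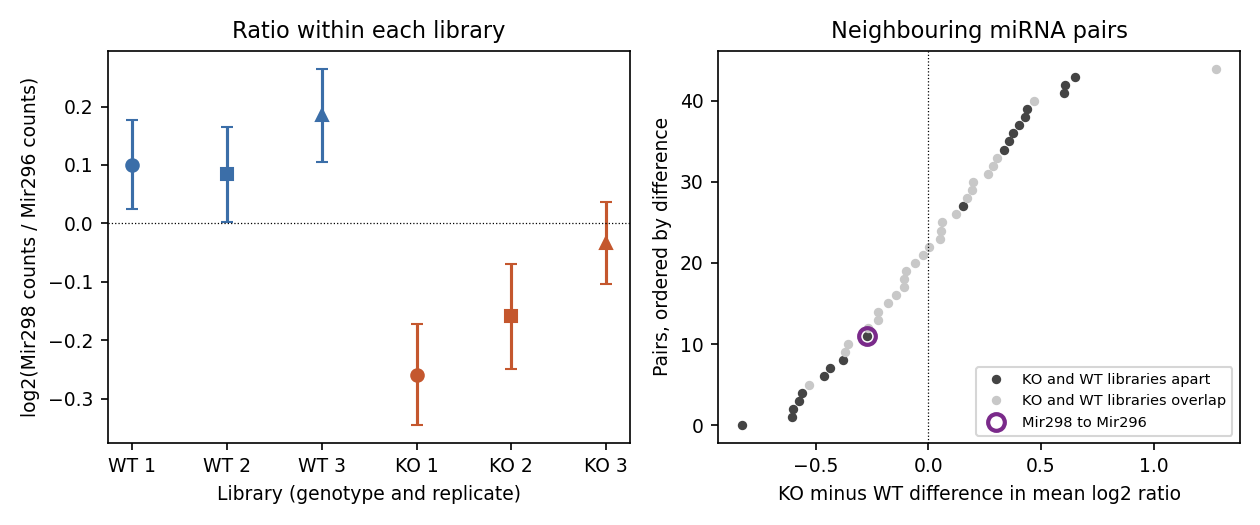
Left, log2 ratio of Mir298 to Mir296 counts in each library with exact 95% counting intervals; right, the KO minus WT difference in mean log2 ratio for 45 neighbouring miRNA pairs, with the Gnas pair circled in purple. The WT points lie above 0 and the KO points below it, and the circled difference of −0.27 lies within the range of the other pairs.

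Mir335, processed from a Mest intron and known as a suppressor of metastasis through Sox4 and tenascin C, varied more between libraries than between genotypes. WT replicates 1 to 3 had 54.2, 65.1 and 18.98 CPM, from 270, 274 and 73 counts. Fbxw7 KO replicates 1 to 3 had 49.8, 57.4 and 76.8 CPM, from 158, 169 and 300 counts. WT replicate 3 was the lowest and Fbxw7 KO replicate 3 the highest of the 6, while the other 4 libraries of the 2 genotypes interleaved. The log2 fold change was 0.41 (SE 0.389, 95% interval −0.47 to 1.29, edgeR adjusted p = 0.480). Its size is close to that of Mir296, but its SE is far larger, and without WT replicate 3 the estimate was 0.03 (SE 0.209, adjusted p = 0.934).

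The spread of Mir335 within WT was among the widest of all tested rows. Its SD of log2 CPM was 0.944 in WT, above 99.6% of the other rows, and 0.316 in Fbxw7 KO, above 72.3%. In WT replicate 3 its CPM was 0.350 times the lower of the other 2 WT libraries. A value under 0.5 in that library by the same measure was found in 9 of the 283 rows (3.18%), and 1 other row lay as low as Mir335. The Gnas pair did not share this: the SD of Mir296 in WT was 0.104 and that of Mir298 0.156, above 18.8% and 35.1% of rows.

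Likeness between profiles was measured as the root mean square difference of log2 CPM over the 6 libraries, after each row was centred on its own mean. The 3 rows nearest to Mir335 among the 282 others were Mir322 on chromosome X (0.185), Mir669o in the imprinted Sfmbt2 intron on chromosome 2 (0.296) and Mir503 on chromosome X (0.330), against a median of 0.712. Mir322 had 1458, 1458 and 608 CPM in WT replicates 1 to 3 and 1250.5, 1254 and 1735 CPM in KO replicates 1 to 3. Mir503 had 189, 175 and 74.1 CPM in the WT libraries, and 117, 113 and 194 CPM without Fbxw7. Mir669o had only 6.62, 5.23 and 2.60 CPM in the WT libraries, and 4.73, 6.11 and 6.66 CPM without Fbxw7. Counting error therefore weighs more on its profile, and the Mir669 family has many near copies, which makes counts uncertain. In Mir322 and Mir503, as in Mir335, WT replicate 3 was the lowest library and Fbxw7 KO replicate 3 the highest. The rows were picked for likeness to Mir335 over these same 6 libraries, so this agreement follows from the choice.

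**Figure D4:**
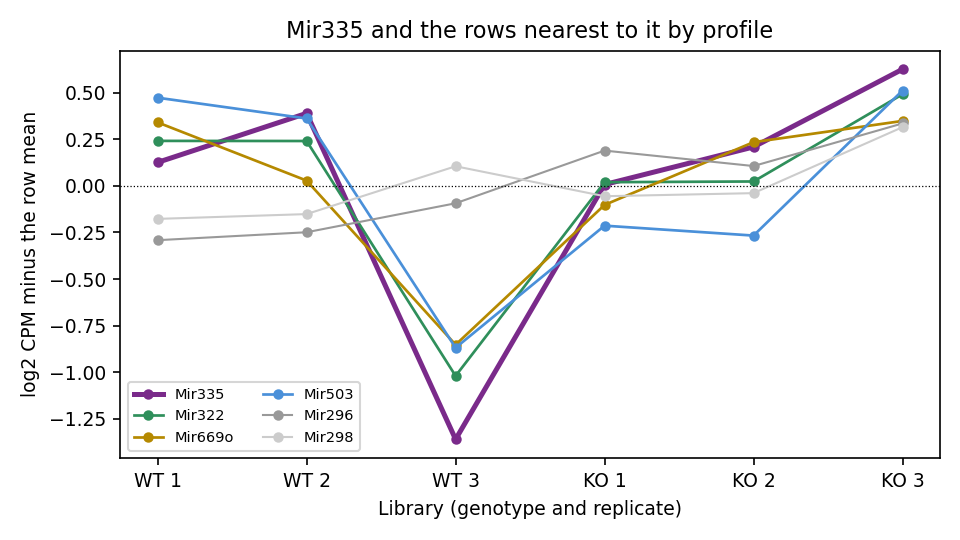
log2 CPM minus the row's own mean in each library for Mir335, the 3 rows nearest to it by profile, and Mir296 and Mir298; lines join the values of 1 row. Mir335, Mir322, Mir669o and Mir503 are all lowest in WT replicate 3 (−1.36 for Mir335), where Mir298 is at 0.11. The 3 nearest rows were picked for likeness to Mir335 over these 6 libraries.

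The Gnas pair were not each other's nearest rows. Nearest to Mir296 were Mir101b on chromosome 19 (0.0633), Mir421 on chromosome X (0.0813) and Mir7688 on chromosome 10 (0.104), and Mir298 came 17th (0.155). Rows picked in this way have fold changes near that of Mir296 by the choice. The log2 fold change was 0.38 for Mir101b (edgeR adjusted p = 0.0370), 0.36 for Mir421 (0.190) and 0.28 for Mir7688 (0.290). Nearest to Mir298 were Mir98 on chromosome X (0.0733), Mirlet7c-2 on chromosome 15 (0.0838) and Mir700 on chromosome 4 (0.106), and Mir296 came 15th. Mir335 was far from both, at place 239 for Mir296 and 253 for Mir298.

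Mir675, cut from H19 and known to restrain placental growth, was almost undetected. It had 1 count in WT replicate 1 and 2 counts in Fbxw7 KO replicate 3, and 0 in the other 4 libraries. There, 0 counts allow up to 0.713 CPM in WT replicate 2, 0.780 in WT replicate 3, 0.946 in Fbxw7 KO replicate 1 and 1.02 in Fbxw7 KO replicate 2 (3 counts, counting error only). Over each genotype the share was 0.0752 per 1000000 counts in WT (exact 95% interval 0.00190 to 0.419) and 0.204 in Fbxw7 KO (0.0246 to 0.735). The ratio of 2.71 had an interval of 0.141 to 159.7, so no difference was detectable at this depth. The intervals of the shares and of their ratio pool the libraries of a genotype and cover counting error only, not the spread between libraries. The H19 transcript itself was not analysed here.

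Mir483, cut from an Igf2 intron and raised together with Igf2 in Wilms tumour, was likewise near the limit. It had 3 counts in WT replicate 1, 3 in Fbxw7 KO replicate 2 and 1 in Fbxw7 KO replicate 3, and 0 in the other 3 libraries. The share was 0.226 per 1000000 counts in WT (exact 95% interval 0.0465 to 0.659) and 0.407 in Fbxw7 KO (0.111 to 1.04), a ratio of 1.80 (0.305 to 12.3). Here too the intervals pool libraries and cover counting error only. With 3 counts of Mir675 and 7 of Mir483 in all, their ratio was not computed. Neither row passed the filter on low counts, so of the 5 members 3 were tested, and of these 1 was higher in Fbxw7 KO, 0 were lower and 2 did not pass (edgeR; the same counts at an unadjusted p under 0.05, and 0 higher and 0 lower by DESeq2), where 15.2% of all 283 tested rows were higher and 10.2% lower by edgeR.

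With TMM factors from rows outside the Dlk1-Dio3 region, the median over the 283 tested rows went from 0.05 to −0.07. Mir296 then stood at 0.29, Mir298 at 0.02 and Mir335 at 0.28.

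**Figure D5:**
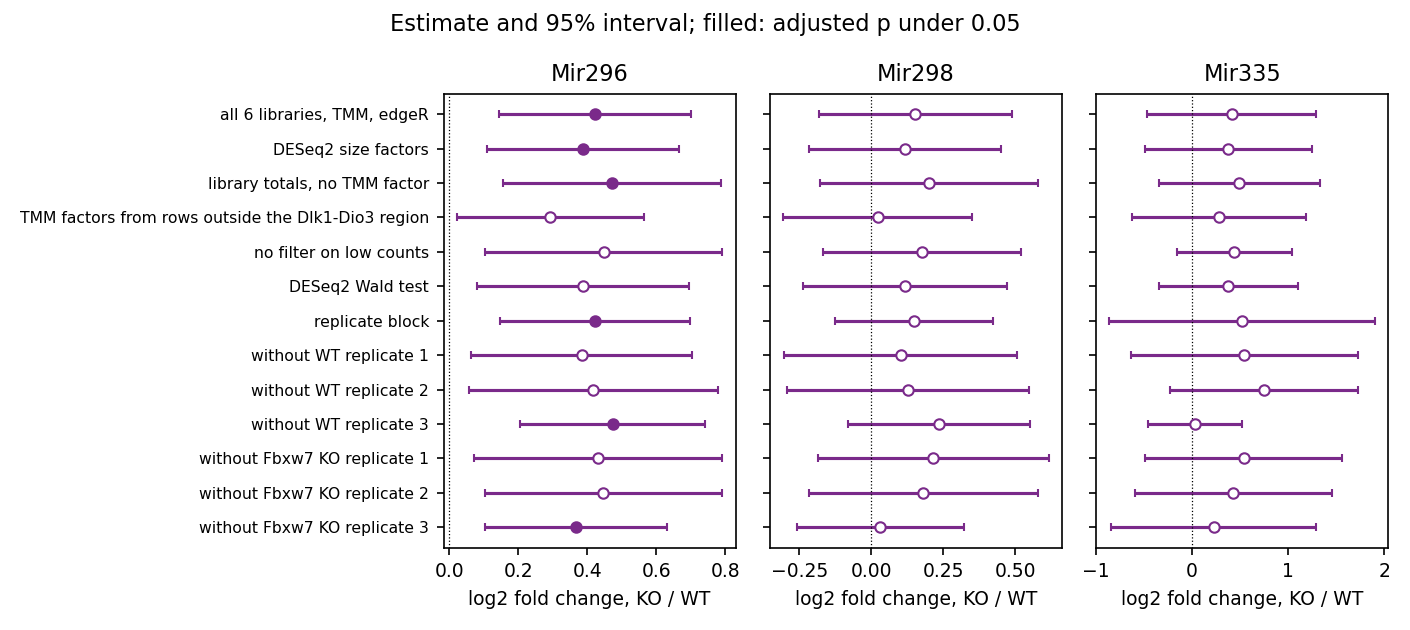
log2 fold change (Fbxw7 KO against WT) of Mir296, Mir298 and Mir335 with 95% intervals for all 6 libraries and 12 alternatives; filled points have an adjusted p under 0.05. Mir296 stays above 0 throughout but is filled in only 6 of the 13 rows, and Mir335 falls to 0.03 without WT replicate 3.

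Other miRNAs of imprinted regions were listed by position, and no test compared these lists with the 5 members. Of 61 rows in the Dlk1-Dio3 region, a maternally expressed cluster on chromosome 12, 41 were tested by edgeR, of which 0 rose, 16 fell and 25 did not pass (0 and 20 at an unadjusted p under 0.05, and 0 and 17 by DESeq2), against 15.2% higher and 10.2% lower over all 283 rows, with a median log2 fold change of −0.48 against 0.05 over all tested rows. Its 2 most abundant rows were Mir127 (−0.62, edgeR adjusted p = 0.722), with 2082 CPM in Fbxw7 KO replicate 3 against a lowest value of 19192 in the other libraries, and Mir379. Of 71 rows within the Sfmbt2 intron, a paternally expressed cluster on chromosome 2, 52 were at 0 in every library. Among its 6 tested rows 0 rose and 0 fell by edgeR (again against 15.2% and 10.2%), at an unadjusted p under 0.05 as well, and by DESeq2, with a median log2 fold change of −0.28. Its 2 most abundant rows were Mir669c and Mir467d, both of families with many near copies, which makes their counts uncertain. Mir669c had 91.5, 114 and 80.3 CPM in WT and 70.7, 83.2 and 59.2 CPM in Fbxw7 KO (log2 fold change −0.43, edgeR adjusted p = 0.159). Mir184, beside the imprinted gene Rasgrf1, had 49 counts in all, 27 of them in WT replicate 3, and was not tested.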

How the data were processed

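Small RNA of 3 WT and 3 Fbxw7 KO fibroblast libraries was deposited by the authors as whole-number counts per miRNA gene name. Per the file headers these counts came from featureCounts 1.6.4, which summed reads by gene name and ignored strand, with no switch for reads of several alignments or over 2 features. The submitters' processing notes name mm10, TopHat2 2.1.1, SAMtools 1.5, Cufflinks 2.2.1 and deepTools; read trimming is not given in the sources used here. The second table holds FPKM deposited by the authors, a rescaling of the counts by length and library (relative spread of the factor within a library at most 1.52e-14), used only to set levels side by side.

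The genotype test on counts was that of edgeR 4.0.16, run in R 4.3.3 (TMM factors, glmQLFit with robust estimation, glmQLFTest, 2-sided, genotype as the only term). filterByExpr with a minimum count of 10 and a minimum total of 15 kept 283 of 1155 rows, and p-values were Benjamini-Hochberg adjusted over these with a threshold of 0.05. SEs come from the F statistic. Log2 CPM used a prior count of 2. Ratios were compared by an exact permutation test (SciPy 1.17.1), and counting intervals at the 95% level are exact. The scripts were tested on simulated data. No pair of libraries within a genotype agreed within sampling noise (chi-square per degree of freedom at least 112). Alternatives were other scalings, no filter, DESeq2 1.42.0, a replicate block and leaving out each library.

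The named miRNAs are the 5 members, the 3 rows nearest to each tested member, and the 2 most abundant rows of each positional list. The members and lists were chosen with earlier results of these data known. Sequences are RefSeq's for GRCm38.p6, matched by symbol for 5 of 5 members and 926 rows, and host genes are GENCODE M21's.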

Additional observations from a re-analysis of the deposited data

How the results depend on the processing

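The rise of Mir296 kept its direction in all 12 alternatives. It lost its call with TMM factors from rows outside the Dlk1-Dio3 region (log2 fold change 0.29), with no filter on low counts (0.45) and with DESeq2's Wald test (0.39). Leaving out each library gave 0.37 to 0.47 and ended the call for 4 of 6. The call was kept without WT replicate 3 (edgeR adjusted p = 0.0265) and without KO replicate 3 (0.0457). All 6 of these fits had fewer samples, and why the call ended in any setting was not tested. Mir298 (0.02 to 0.24) and Mir335 (0.03 to 0.75) stayed positive and uncalled in all 12. The number of miRNAs changed was 64 to 76 in the alternatives that kept all libraries, against 72, and 34 to 78 with 1 library left out. It fell by over 1.5 times when WT replicate 1 (42), WT replicate 2 (35) or KO replicate 2 (34) was dropped. Scaling on rows outside the Dlk1-Dio3 region gave 30 higher and 34 lower, against 43 and 29.

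Replicate numbers do not pair the libraries by any label, and same-numbered libraries had correlations of deviations of −0.06, 0.14 and 0.16 for numbers 1 to 3. KO replicate 1 correlated best with WT replicate 2 (0.15), while KO replicates 2 and 3 each correlated best with the WT library of the same number. With a replicate block the log2 fold change was 0.42 for Mir296 (edgeR adjusted p = 0.0331), 0.15 for Mir298 and 0.52 for Mir335, and 76 miRNAs were called.

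The Mir298 to Mir296 difference in log2 ratio was −0.33 to −0.22 with 1 library left out. Mir675 and Mir483 could be fitted by edgeR only with no filter (log2 fold changes 1.10 and 0.77, adjusted p = 0.778 for both). Against their log2 ratios of shares of 1.44 and 0.85, leaving out libraries gave 0.83 to 1.99 and −0.64 to 1.41, and no value where a genotype then had no counts. The other scalings, DESeq2 and the block were not run for these 2, and the Mir675 to Mir483 ratio was not run for lack of counts. Both rows were below the filter on low counts, which the other 3 members passed.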
